A study of Rattus norvegicus with 63 samples.

Results

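Acetamide (AA), a small amide that causes liver tumours in rats after long feeding, was given to male Wistar Hanover rats of 8 to 10 weeks by gastric gavage at 3000 mg/kg per day for 14 days, and the miRNAs of their livers were measured on 1-colour arrays. The rats AA replicates 1, 2 and 3 gave 3 of the 63 arrays of the series, which covers 15 compounds and 6 sets of vehicle controls with 3 rats each. The labels assign AA to control set 1, the rats MC replicates 4, 5 and 6, which received the vehicle methylcellulose by gavage for 14 days. The vehicle is named methylcellulose in the labels and a carboxymethyl cellulose suspension in the methods. The 3 rats on arrays came from dose groups of 5 and were picked, per the methods, among animals with some liver change on histopathology, so they are not a random draw. All groups share the strain, sex, age and route. Liver tissue was used in bulk, so fewer cells of a type and less RNA per cell cannot be told apart. Methylcarbamate (Mcarb, 400 mg/kg per day for 14 days in the same vehicle) shares control set 1 and was compared with AA as well. Ethionine (ETH, 200 mg/kg per day), cefuroxime (CFX, 250 mg/kg per day) and nifedipine (Nif, 3 mg/kg per day) were also given for 14 days in this vehicle.

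miRNAs are short RNAs that pair with messenger RNAs through a seed, bases 2 to 8 counted from the 5′ end, and lower the output of the messengers they bind. miRNAs with the same seed are grouped in families, and miRNAs of neighbouring genes are often cut from a single primary transcript. In liver, miR-122 marks hepatocytes, miR-34a is a transcriptional target of p53, the miR-15/16 family acts on cell cycle genes, and miR-143 is made mostly by smooth muscle and other mesenchymal cells.

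Of 27 array names looked up, 23 had a mature sequence in RefSeq, build GRCr8. The mature sequences of miRNAs on which the results turn follow, so that shared seeds can be seen, with the seed in capitals.
rno-miR-34a-5p: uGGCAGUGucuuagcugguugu
rno-miR-15b-5p: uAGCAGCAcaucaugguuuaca
rno-miR-16-5p: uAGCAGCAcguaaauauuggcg
rno-miR-195-5p: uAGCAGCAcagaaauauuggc
rno-miR-107-3p: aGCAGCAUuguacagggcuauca
rno-miR-130a-3p: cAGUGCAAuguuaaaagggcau
rno-miR-143-3p: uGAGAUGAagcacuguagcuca
rno-miR-106b-5p: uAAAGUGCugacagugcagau
rno-miR-93-5p: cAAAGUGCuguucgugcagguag
rno-miR-125b-5p: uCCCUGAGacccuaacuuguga
rno-miR-30a-3p: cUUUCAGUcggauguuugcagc
rno-miR-30c-5p: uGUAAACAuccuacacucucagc
rno-miR-23b-3p: aUCACAUUgccagggauuacc
rno-miR-193a-3p: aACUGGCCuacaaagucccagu
miR-15b (chr2:155555197-155555218, plus strand) and miR-16 (chr2:155555343-155555364, plus strand) share the seed AGCAGCA with miR-195 (chr10:55450509-55450529). The first bases of miR-15b and miR-16 lie 146 bases apart inside the span of the protein-coding gene Smc4. miR-106b (chr12:22157103-22157123, minus strand) and miR-93 (chr12:22156894-22156916, minus strand) share the seed AAAGUGC and lie 209 bases apart inside the span of Mcm7, the gene of a replication helicase subunit. miR-34a (chr5:165815971-165815992) and miR-125b-5p (chr11:29732588-29732609) lie inside spans annotated as lncRNA. miR-143 (chr18:57371373-57371394) lies inside the lncRNA gene Carmn. RefSeq gene spans do not tell exon from intron here. The array's miR-30a*, miR-193 and unsuffixed names were matched to the arms given above.

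Levels are log2 of spot brightness after quantile normalization without background correction, so an unexpressed miRNA sits near 7.4 on this scale and not at 0. The neuronal miRNA miR-124, for example, had levels of 7.37 to 7.38 in AA rats and was well above background on 0 of 63 arrays. Fold changes are compressed on this scale for miRNAs near that floor. AA replicates 1 and 2 were hybridised on slide 4 and scanned on day 1, and AA replicate 3 on slide 5, scanned on day 2. Control replicate 4 lay on slide 9 (day 3) and replicates 5 and 6 on slide 8 (day 2), so no slide holds both groups. The median spot brightness of the AA arrays was 242.5, 243.5 and 148 units, and that of the control set 1 arrays 78, 148.5 and 152. Between 108 and 120 miRNAs were detected per AA array and 96 and 102 on control replicates 5 and 6, with the most on control replicate 4, the dimmest array. Within AA the levels of the 162 miRNAs tested correlated at r = 0.994 to 0.996 between rats, a description across miRNAs, which are not replicates.

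The identity of the control arrays is in doubt. In the authors' value table each AA column followed its own array, with r of 0.87 to 0.93 over 71 miRNAs for deviations from the mean of each miRNA. The columns of control set 1 followed the arrays filed as control set 5 instead, with r of 0.86 to 0.89, against 0.23 to 0.56 with the arrays filed as set 1. The columns of set 5 followed the arrays filed as set 2, and those of set 2 the arrays filed as set 1. Columns of diethylstilbestrol and dehydroepiandrosterone followed each other's arrays. Of the 63 columns, 48 best matched their own array. The files do not settle whether the arrays or the columns carry the wrong label. Both readings are therefore given: AA against the arrays filed as control set 1, which follows the labels, and AA against the arrays filed as control set 5 (MC replicates 7, 8 and 9, also methylcellulose), which follows the value table. Between those groups of control arrays limma called 0 of 162 miRNAs, with 16 at an unadjusted p under 0.05.

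Against control set 1, AA livers had 13 miRNAs higher (8.02% of the 162 tested) and 9 lower (5.56%), together 13.6%, at a Benjamini-Hochberg adjusted p under 0.05 in limma. The largest rises were miR-34a, miR-15b, miR-16, miR-139-3p and miR-130a, and the largest falls were miR-99a, miR-193 and miR-125b-5p. On this scale the changes were at most 1.46-fold. The AA rats lay above all control rats for 21 miRNAs (13%) and below all for 19 (11.7%). Against the set 5 arrays, 4 miRNAs were higher (2.47%) and 0 lower (0%), with 12 and 9 at an unadjusted p under 0.05. These 4 were miR-34a, miR-15b, miR-130a and miR-143, and all are among the 13. Non-overlap with the set 5 arrays was found for 19 miRNAs above (11.7%) and 16 below (9.88%). The median log2 fold change over all miRNAs was 0.0007 with set 1 and 0.0033 with the set 5 arrays. With slide as a fixed block, 0 miRNAs were called in either reading. Each SE and p rests on a spread pooled over all 21 groups of the 63 arrays, not on the compared rats alone. With only AA and control set 1 in the fit, 0 miRNAs were called.

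**Figure D1:**
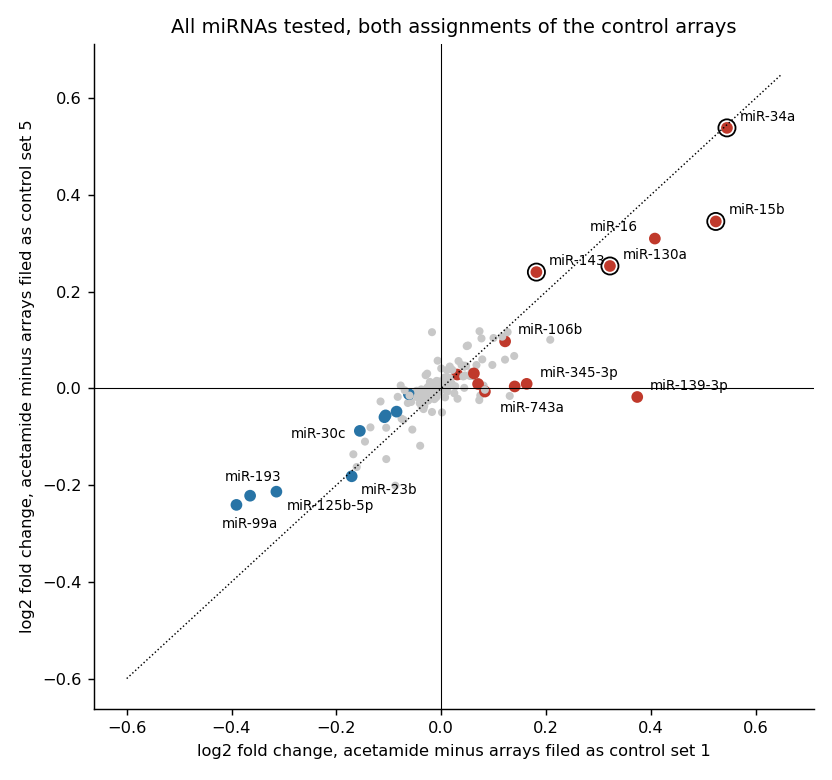
Log2 fold change of each of the 162 miRNAs for AA minus the arrays filed as control set 1 (x axis) and AA minus the arrays filed as control set 5 (y axis). Red and blue points were called higher and lower on the x axis, black rings mark the 4 called on the y axis, and the dotted line is equality. miR-34a lies on the line at 0.55 and 0.54, while miR-139-3p falls from 0.37 to -0.02.

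miR-34a, the p53 target, had the largest rise. Its levels were 8.29, 8.14 and 8.57 in AA rats and 7.80, 7.70 and 7.87 in control set 1. The set 5 arrays read 7.77, 7.73 and 7.88. All 3 AA rats lay above all 6 control arrays, with replicate 3 highest. The rise over control set 1 was 0.55 log2 units (SE 0.12, 1.46-fold, limma adjusted p = 0.00162), and over the set 5 arrays 0.54 (adjusted p = 0.00481). In the value table the levels were 6.97, 6.63 and 7.52 in AA and 5.17, 4.94 and 5.68 under the control set 1 label, a difference of 1.78 log2 units. With the background-subtracted signal scaled to the 75th percentile of detected miRNAs it was 1.82. The size of the rise thus depends on the scale, while its sign does not. On scan day 2 alone, AA replicate 3 lay 0.78 above the day 2 rats of control set 1, a value that rests on 1 AA rat and is given with no test. For the AA rats of scan day 1 against MC set 6, scanned on that day, the rise was 0.40, and miR-34a was not called. Without AA replicate 3 the rise was 0.43, with an adjusted p of 0.0292. With slide as a fixed block it was 0.70, at an adjusted p of 0.398. The other members of the p53-linked list did not pass: miR-34b and miR-34c were not well above background in any AA or control set 1 rat, and miR-192 and miR-194 had values of -0.10 and -0.17 (adjusted p 0.381 and 0.0833). Of 5 members tested 1 was higher and 0 lower, with a median of -0.01, beside 8.02% higher and 5.56% lower over all 162 miRNAs.

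miR-15b and miR-16, the neighbours with the seed AGCAGCA, rose together. miR-15b had levels of 8.92, 8.64 and 8.74 in AA rats, against 8.21, 8.16 and 8.35 in control set 1 and 8.57, 8.31 and 8.39 on the set 5 arrays. AA lay above both sets, but the margin to the highest set 5 array was small. The rise was 0.52 (SE 0.07, 1.44-fold, limma adjusted p = 1.95e-07) over set 1 and 0.35 (adjusted p = 0.00127) over the set 5 arrays. With slide as a fixed block these values were 0.44 (adjusted p = 0.398) and 0.17 (adjusted p = 0.885). miR-16 had levels of 9.69, 9.53 and 9.64 in AA, 9.19, 9.05 and 9.40 in control set 1 and 9.31, 9.24 and 9.38 on the set 5 arrays. Its rise was 0.41 (SE 0.10, 1.33-fold, limma adjusted p = 0.00433) over set 1, and it missed the threshold over the set 5 arrays with 0.31 (adjusted p = 0.0721). Without control replicate 5 the miR-16 call was lost (0.33, adjusted p = 0.0736), and against MC set 6, with the AA rats scanned on the same day, its value was -0.03. miR-15b kept 0.30 in that comparison (adjusted p = 0.0147). miR-195, which has the same seed but another locus, had a value of -0.16 (adjusted p = 0.378). Of the 6 members of the miR-15/16 list tested, 2 were higher and 0 lower, with a median of 0.01. Over all 162 miRNAs 8.02% were higher and 5.56% lower. miR-16 is also abundant in red blood cells. The erythroid markers miR-451 and miR-144 had values of 0.12 and -0.01, with miR-451 levels of 9.22, 9.83 and 10.19 in AA and 9.67, 9.35 and 9.87 in control set 1. The part of red blood cells in the miR-16 rise was not tested.

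miR-130a, known for its role in endothelial cells, had levels of 9.01, 8.65 and 8.79 in AA rats. Control set 1 had 8.49, 8.53 and 8.47, and the set 5 arrays 8.6, 8.53 and 8.56. The groups did not overlap, and replicate 1 was the highest rat. The rise was 0.32 (SE 0.07, 1.25-fold, limma adjusted p = 0.00156) and 0.25 over the set 5 arrays (adjusted p = 0.0257). For the AA rats of scan day 1 against MC set 6, scanned on that day, it was 0.16 (adjusted p = 0.202). miR-143 rose by 0.18 (SE 0.06, 1.13-fold, limma adjusted p = 0.0229), with levels of 8.98, 8.86 and 8.89 against 8.72, 8.81 and 8.66. Over the set 5 arrays, at 8.65, 8.59 and 8.77, its rise was 0.24 (adjusted p = 0.00498). The miR-143 call over set 1 was lost without AA replicate 1, control replicate 4 or control replicate 6, with adjusted p of 0.138, 0.0763 and 0.106. Scaling the background-subtracted signal by all probes took miR-143 to -0.01. Its partner miR-145 was not well above background on any of the 63 arrays. In the stellate, muscle and endothelial list 1 of 8 tested members was higher and 0 lower, with a median of 0.03. The shares over all 162 miRNAs were 8.02% and 5.56%.

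**Figure D2:**
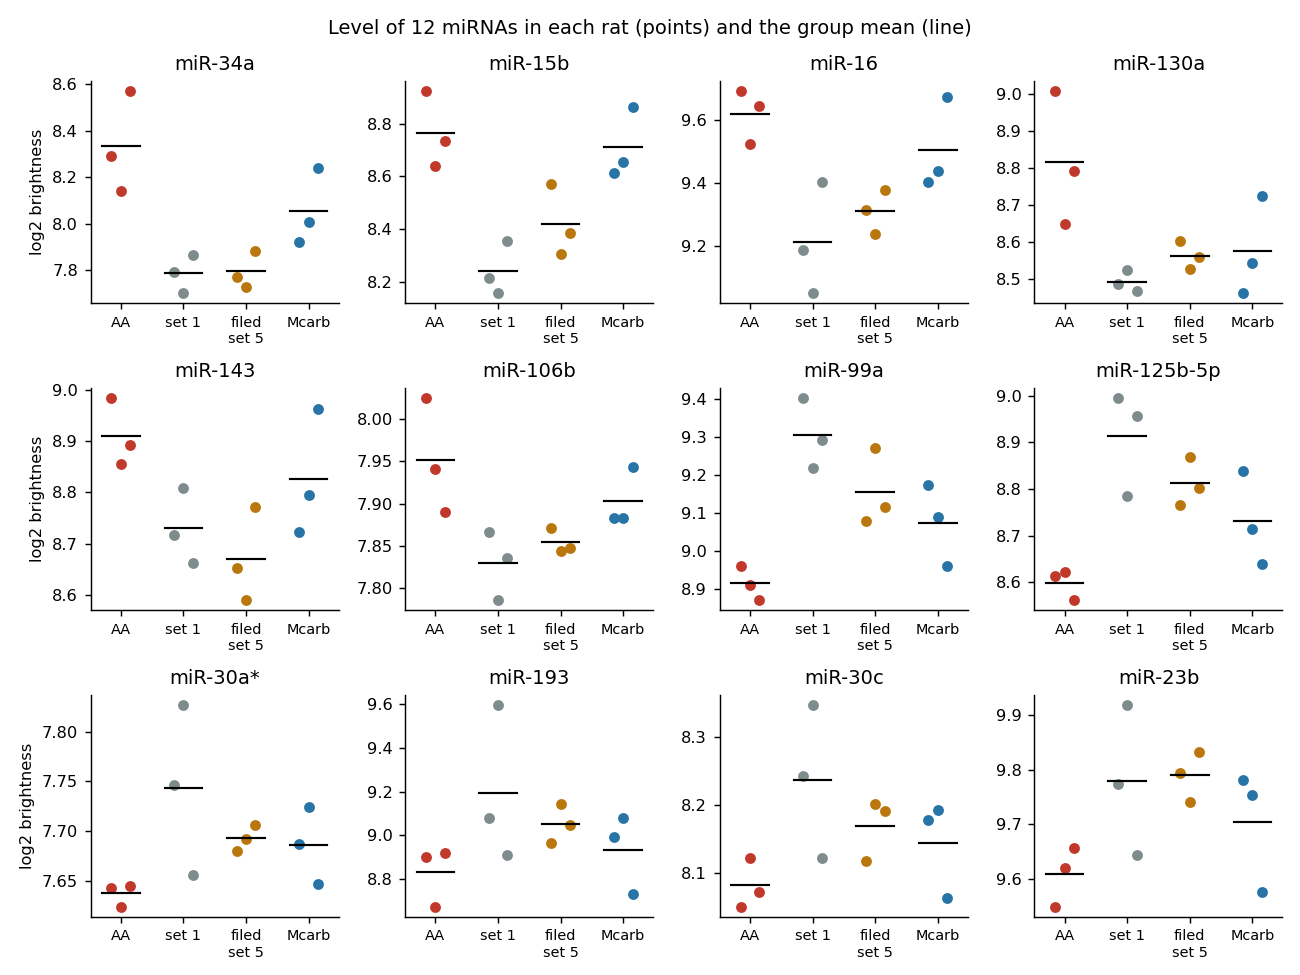
Level of 12 miRNAs on the log2 scale (y axis, separate range per panel) in AA rats, control set 1, the arrays filed as control set 5 and Mcarb, with a point per rat and a line at the group mean. In the panels miR-34a, miR-15b, miR-16, miR-130a, miR-143 and miR-106b the red AA points lie above both control groups. For miR-193, miR-30c and miR-23b they overlap control set 1.

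The pair in Mcm7 rose by less. miR-106b, of the growth-linked family of miR-17, had levels of 8.02, 7.94 and 7.89 in AA and 7.87, 7.79 and 7.84 in control set 1. That is a rise of 0.12 (SE 0.03, 1.09-fold, limma adjusted p = 0.00453), with 0.10 over the set 5 arrays (adjusted p = 0.0673). miR-93 rose by 0.06 (adjusted p = 0.016) with AA rats at 7.56 to 7.62 and control set 1 at 7.49 to 7.56. It was well above background in 3 AA rats and 2 of the control rats, and its value over the set 5 arrays was 0.03. The calls of both were lost without AA replicate 1 or control replicate 5, and with slide as a fixed block their values were -0.01 and -0.03. miR-25, from the same cluster, had a value of 0.07 (adjusted p = 0.122). miR-18a was called at 0.03 but was not well above background in any AA or control rat, so it has no measured level in either group. In all, 3 of 10 tested members of the miR-17 and miR-106b clusters were called higher and 0 lower, with a median of 0.05. That count includes miR-18a and stands beside 8.02% higher and 5.56% lower over all 162 miRNAs.

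miR-99a and miR-125b-5p, which lie in a cluster with let-7c in mammals, fell together. miR-99a had levels of 8.96, 8.91 and 8.87 in AA, 9.40, 9.22 and 9.29 in control set 1 and 9.08, 9.27 and 9.12 on the set 5 arrays. AA rats lay below all control arrays of both sets. The fall was -0.39 (SE 0.09, limma adjusted p = 0.0016) against set 1, and the value was -0.24 (adjusted p = 0.132) against the set 5 arrays, which misses the threshold. miR-125b-5p had levels of 8.61, 8.62 and 8.56 in AA, against 9.0, 8.79 and 8.96 in control set 1 and 8.76, 8.87 and 8.80 on the set 5 arrays. Its fall was -0.31 (SE 0.08, limma adjusted p = 0.00433) and its value against the set 5 arrays -0.21 (adjusted p = 0.132). Both calls against set 1 held without any 1 of the 6 rats. Within scan day 1, against MC set 6, the miR-125b-5p value was -0.05 (adjusted p = 0.774). miR-99a was still called lower there, with AA replicates 1 and 2 at 8.96 and 8.91 and a mean of 9.32 in MC set 6. let-7c had a value of 0.06 (adjusted p = 0.647). Among the other members of the miR-99, miR-100 and miR-125 list, miR-100, miR-99b, miR-125a-5p and miR-125a-3p had values of -0.01, 0.01, 0.02 and 0.08. The list had 2 of 6 tested members lower and 0 higher, with a median of -0.0018, beside 5.56% lower and 8.02% higher over all 162 miRNAs.

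The miR-30 list, which holds major and minor arms, gave 3 falls among 7 tested members, 0 rises and a median of -0.09. Over all 162 miRNAs 5.56% were lower and 8.02% higher. The falls were miR-30c and the minor arms miR-30a* and miR-30e*. miR-30a* has the seed UUUCAGU and miR-30c the seed GUAAACA, so they are not of 1 seed family. miR-30a* was at 7.64, 7.62 and 7.64 in AA rats and 7.75, 7.83 and 7.66 in control set 1, a difference of -0.11 (SE 0.02, limma adjusted p = 0.00156). miR-30e* fell by 0.09 (adjusted p = 0.00485), with AA rats between 7.6 and 7.63 and control rats between 7.62 and 7.77, so the groups overlap. miR-30c had levels of 8.05, 8.12 and 8.07 against 8.24, 8.35 and 8.12, a fall of -0.16 (adjusted p = 0.016). Control replicate 5 was the highest rat for all 3, and without it none was called (adjusted p 0.0736 for miR-30a*, 0.185 for miR-30e* and 0.241 for miR-30c). The miR-30c call was also lost without AA replicate 1 or control replicate 4 (adjusted p 0.0738 and 0.0534). The major arms miR-30a, miR-30b-5p, miR-30d and miR-30e had values of -0.04, 0.05, -0.10 and -0.06 and did not pass. Against the set 5 arrays the values were -0.06 for miR-30a*, -0.05 for miR-30e* and -0.09 for miR-30c, none called.

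Of the remaining falls, miR-193, miR-23b and miR-140 overlapped with the controls. miR-193 had levels of 8.90, 8.67 and 8.92 in AA and 9.08, 9.60 and 8.91 in control set 1. The fall was -0.36 (SE 0.10, limma adjusted p = 0.016). The call was lost without control replicate 5 (-0.16, adjusted p = 0.331) and without AA replicate 2 (-0.29, adjusted p = 0.103). Its value was -0.22 against the set 5 arrays (adjusted p = 0.325), and miR-365 had a value of -0.04. miR-23b had levels of 9.55, 9.62 and 9.66 in AA against 9.77, 9.92 and 9.64, a fall of -0.17 (adjusted p = 0.0307). Against the set 5 arrays, at 9.79, 9.74 and 9.83, the groups did not overlap and the value was -0.18 (adjusted p = 0.0595). miR-140, chosen after its values were seen because its groups overlap, fell by 0.11 (adjusted p = 0.016) and its value was -0.06 against the set 5 arrays. Control replicate 5 was the highest control rat for miR-23b and miR-140 as well, and neither was called without it (adjusted p 0.322 and 0.257). The miR-140 call was also lost without AA replicate 2 (adjusted p 0.0673), and the miR-23b call without AA replicate 1, AA replicate 2 or control replicate 4 (adjusted p 0.138, 0.0521 and 0.0763).

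A further group of calls was dim. miR-139-3p read 7.79, 7.55 and 8.14 in AA, 7.46, 7.44 and 7.46 in control set 1 and 7.57, 7.99 and 7.97 on the set 5 arrays. It was well above background in 3 AA rats, 0 rats of control set 1 and 3 set 5 arrays. The fitted difference from control set 1 was 0.37 (limma adjusted p = 0.0315). For a bound, each control array was given its lowest level well above background, or its own reading where that was higher. By this bound, which was not tested, AA was at least 1.25-fold higher than control set 1. Against the set 5 arrays the value was -0.02. miR-345-3p, miR-743a and miR-320 were well above background in AA replicate 3 alone among the AA and control set 1 rats, and the fitted differences from control set 1 were 0.16, 0.14 and 0.08. Their levels in AA replicate 3 were 7.75, 7.69 and 7.62, and their values against the set 5 arrays were 0.01, 0.0042 and -0.01. Without AA replicate 3 none of these 4 was called, with adjusted p of 0.325, 0.437, 0.437 and 0.44. Each of the 4 calls was also lost without control replicate 4, 5 or 6, and those of miR-139-3p and miR-345-3p without AA replicate 1 too. miR-23a* was called higher but was not well above background in any rat of AA or control set 1, so it gives no fold. miR-338, called lower, was well above background in 0 AA rats and 1 control rat, with readings of 7.56, 7.58 and 7.55 in AA and 7.65, 7.64 and 7.58 in control set 1 (-0.06, adjusted p = 0.0215). Its call was lost without AA replicate 1, AA replicate 3, control replicate 4 or control replicate 5.

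**Figure D3:**
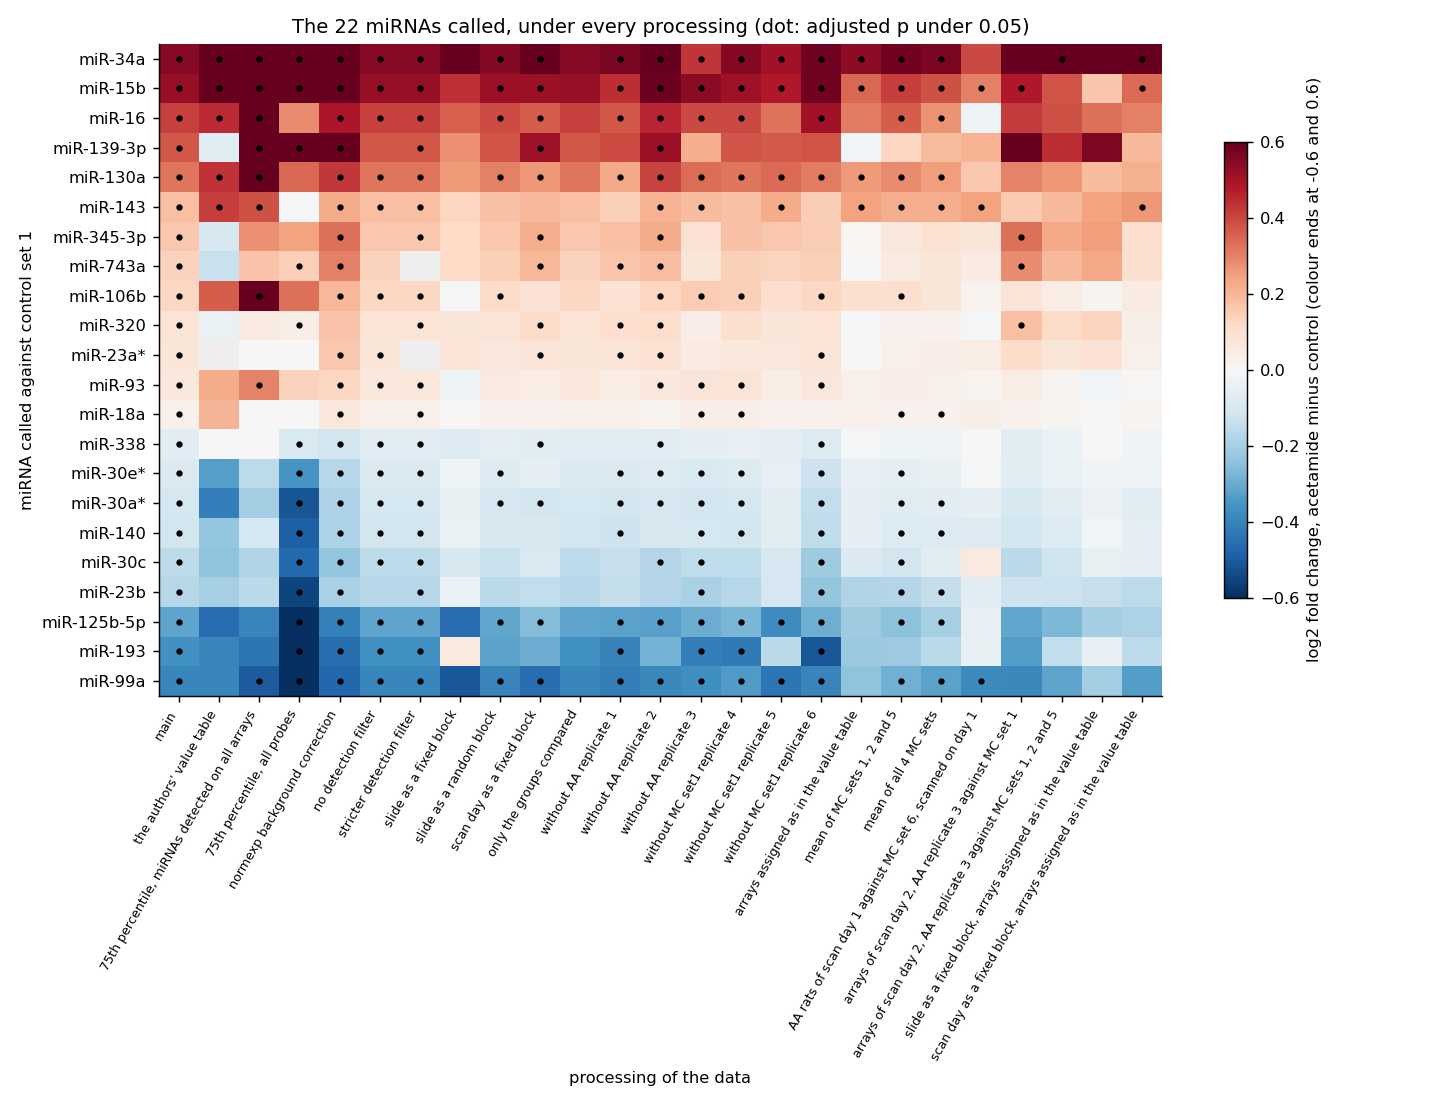
Log2 fold change (colour, with ends at -0.6 and 0.6) of the 22 miRNAs called against control set 1 (rows) under the main processing and each alternative (columns), with a dot where the adjusted p was under 0.05 and grey where the miRNA was not in the table. The rows of miR-34a and miR-15b are red in all columns, and the columns with slide as a fixed block or with only the groups compared hold no dot.

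Of the cell type markers tested, miR-143 was the one called. Over all 162 miRNAs 13.6% were called, and counts over so few markers are a description only. The hepatocyte marker miR-122 was well above background on 63 of 63 arrays, with levels of 14.66 to 14.69 in AA and 14.66 to 14.67 in control set 1 (log2 fold change 0.01, adjusted p = 0.942). Quantile normalization ties the brightest spots of all arrays to a shared distribution. With the 75th percentile over all probes it was -0.45 (adjusted p = 0.047). Of 4 leukocyte markers tested, 0 were called, and their summed level, 2 to the power of the log2 level, was 1047 to 1078 in AA, 1022 to 1058 in control set 1 and 1020 to 1030 on the set 5 arrays. miR-142-3p and miR-223 had values of 0.05 and 0.01. Neither erythroid marker was called, with summed levels of 832 to 1484 in AA, 928 to 1224 in control set 1 and 901 to 1350 on the set 5 arrays. The stellate cell and smooth muscle markers summed to 1070 to 1114 in AA, 992 to 1045 in control set 1 and 960 to 1026 on the set 5 arrays, and 1 of 3 tested, miR-143, was called. Besides miR-145, miR-214 was not well above background in any AA rat, and miR-199a-3p had a value of 0.07 (adjusted p = 0.516). The endothelial marker miR-126 had a value of 0.07 (adjusted p = 0.488) and summed levels of 622 to 672 in AA, 604 to 624 in control set 1 and 625 to 681 on the set 5 arrays. Bile duct markers summed to 769 to 804 in AA, 740 to 828 in control set 1 and 786 to 791 on the set 5 arrays, with 0 of 4 called. The muscle miRNAs miR-1, miR-133a and miR-206 and the neuronal miR-124 and miR-9 were well above background on 0 of 63 arrays. The 3 muscle miRNAs still summed to 509 to 512 in AA, since background was not subtracted. Each sum above holds such a floor for every marker in it. The part of other cell types in the changes of miR-143, miR-130a and miR-16 was not tested.

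The counts in the remaining lists are given beside the 13.6% called over all 162 miRNAs. Like those in the lists above, they give no result about the lists. The hepatocyte list had 0 of 9 tested members called, although 8 had values below 0, with a median of -0.08 beside 0.0007 for all miRNAs. The let-7 list had 0 of 9 called and a median of 0.08, and let-7i came nearest with 0.14 (adjusted p = 0.0833). In the list of injury and growth miRNAs 1 of 9 tested members, miR-23b, was called, and miR-21, which rises in many forms of liver injury, had levels of 12.62, 12.42 and 12.66 in AA and 12.49, 12.46 and 12.45 in control set 1, a difference of 0.10 (adjusted p = 0.516). The miR-29 list, which acts on collagen messengers, had 0 of 5 called, with miR-29b at -0.02 (adjusted p = 0.981). The leukocyte, epithelial and bile duct, erythroid, miR-103 and miR-107, miR-26, miR-181 and imprinted Dlk1-Dio3 lists had 0 called, and miR-193 was the call in the miR-193 and miR-365 list. In the leukocyte list miR-146a, an inhibitor of inflammatory signalling, had a value of 0.21 (adjusted p = 0.067). With the set 5 arrays as controls the only lists with a call were p53-linked, miR-15/16 and the stellate, muscle and endothelial list, with 1 higher each.

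**Figure D4:**
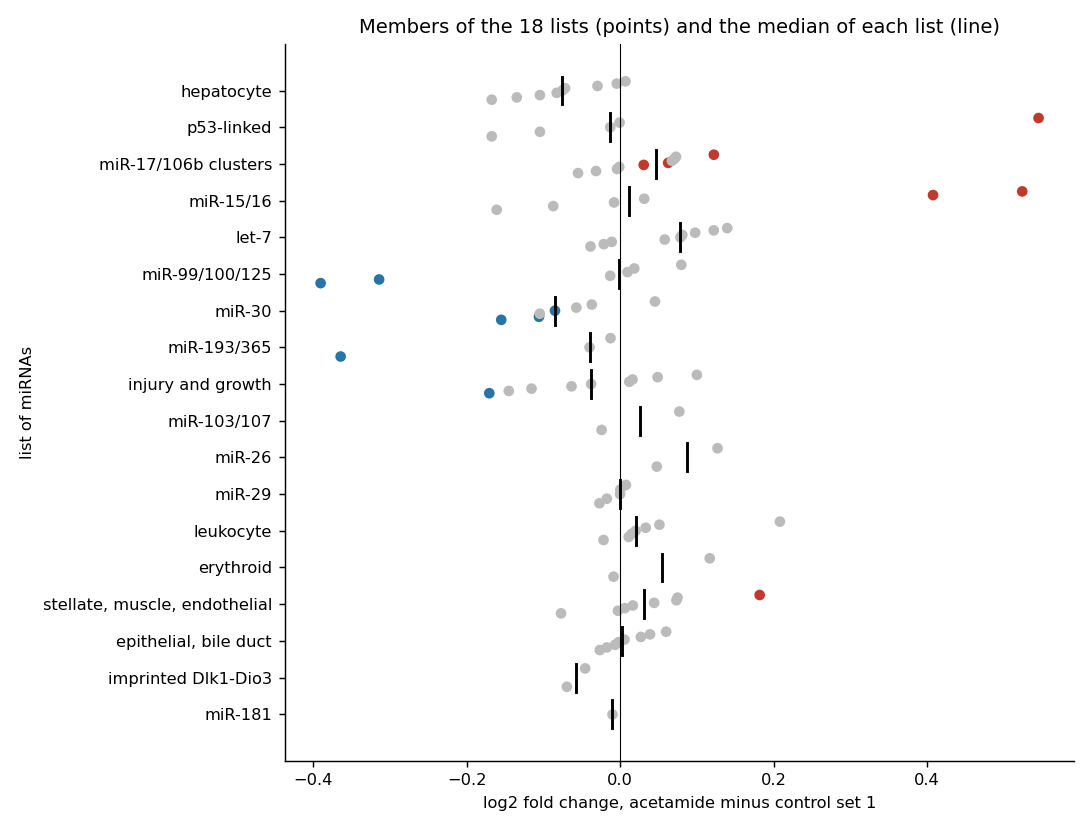
Log2 fold change of AA minus control set 1 (x axis) for the tested members of 18 lists (y axis), with red and blue points for members called higher and lower, grey points for the others and a black line at the median of each list. The list medians lie between -0.09 and 0.09, the highest points are miR-34a at 0.55, miR-15b at 0.52 and miR-16 at 0.41, and the lowest are miR-99a at -0.39 and miR-193 at -0.36.

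AA and Mcarb differ by a methyl group in AA where Mcarb has a methoxy group, were given for the same time in the same vehicle, and were compared without any control rat. The doses differ (3000 and 400 mg/kg per day). By replicate, AA was scanned on days 1, 1 and 2 and Mcarb on days 2, 3 and 2. limma called 0 of 162 miRNAs (0%), with 18 at an unadjusted p under 0.05. The lowest adjusted p was 0.0949. The nearest were miR-26b, with 10.01, 10.03 and 10.03 in AA against 9.88, 9.75 and 9.88 in Mcarb (0.19, 95% interval 0.08 to 0.29), and miR-130a, with Mcarb levels of 8.46, 8.54 and 8.72 (0.24, interval 0.10 to 0.38). miR-15b was at 8.61, 8.66 and 8.86 in Mcarb rats, which overlaps AA, and the difference was 0.05 with an interval of -0.08 to 0.19. miR-34a was at 7.92, 8.01 and 8.24 in Mcarb, and the difference was 0.28 with an interval of 0.03 to 0.52 before adjustment (adjusted p = 0.334). For miR-99a the difference was -0.16 (interval -0.33 to 0.01). A p that misses the threshold does not show that both compounds act alike.

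Side by side, and sharing the control set 1 rats, miR-15b was 0.52 above control set 1 in AA. It was 0.47 in Mcarb (limma adjusted p = 2.86e-06) and 0.13 in thioacetamide (TAA, adjusted p = 0.162). Methapyrilene (MPy) and Wy-14643 (Wy), each at 60 mg/kg per day for 7 and 3 days, also share control set 1. So does dehydroepiandrosterone (DHEA, 600 mg/kg per day for 14 days), whose label and value column disagree. miR-15b was 0.43 in MPy (limma adjusted p = 8.02e-06), 0.22 in Wy (adjusted p = 0.0134) and 0.07 in DHEA (adjusted p = 0.53). The differences given here use control set 1 only. Mean miR-15b was 8.77 in AA, 8.71 in Mcarb and 8.37 in TAA, against 8.24 in control set 1. The set 5 arrays had a mean of 8.42, which is above that of TAA. TAA carries sulphur in place of the oxygen of AA, and its dose of 19.2 mg/kg per day and its 7 days differ from those of AA. Control set 1 is labelled as 14 days, so it is not matched in time to TAA, MPy or Wy. miR-34a was 1.96 above control set 1 in TAA, with rats at 9.77, 10.00 and 9.48, against 0.55 in AA and 0.27 in Mcarb. In MPy, DHEA and Wy the miR-34a values were 1.12, 0.40 and 0.09. miR-143 was 0.18 in AA and -0.19 in TAA. miR-130a was 0.32 in AA, 0.08 in Mcarb and 0.0006 in TAA. miR-99a was -0.39, -0.23 and -0.23 in AA, Mcarb and TAA. It was -0.57 in MPy, -0.33 in Wy and -0.72 in DHEA, so a lower miR-99a was not particular to AA. Its mean level was 9.07 in both Mcarb and TAA, 9.30 in control set 1 and 9.15 on the set 5 arrays. No difference between AA and TAA, MPy, Wy or DHEA was tested.

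Against the mean of the 4 other 14-day compounds, Mcarb, ETH, CFX and Nif, AA rats had 7 miRNAs higher (4.32%) and 4 lower (2.47%), together 6.79% of 162. This contrast uses no control rat. Of the further 14-day compounds, cyproterone acetate was given in corn oil, and dehydroepiandrosterone was left out because its label and value column disagree. Phenobarbital (PB) was left out because it was scanned with MC set 6, on day 1. AA replicates 1 and 2 were scanned on that day too, and the Mcarb rats on days 2 and 3. Scan day and compound are thus partly confounded in this contrast. Mean levels of miR-16 and miR-125b-5p were 9.62 and 8.60 in AA, 9.64 and 8.67 in MC set 6, and 9.56 and 8.58 in PB. Those of miR-15b and miR-99a were 8.77 and 8.91, 8.48 and 9.32, and 8.39 and 9.15. miR-15b was highest in size at 0.36 (SE 0.05, 1.28-fold, limma adjusted p = 6.12e-06). The 12 other rats ran from 8.11 to 8.86 with a median of 8.35, and the overlap with AA came from Mcarb. miR-16 followed at 0.28 (adjusted p = 0.0199) with other rats from 9.11 to 9.67, and miR-130a at 0.27 (adjusted p = 0.000676) with other rats from 8.39 to 8.72. miR-26b was higher by 0.18 (SE 0.04, adjusted p = 0.00468). Its AA levels lay above those of the 12 other rats, but the lowest AA rat and the highest other rat both read 10.01 after rounding. The mean was 9.71 in ETH and 9.98 in Nif. miR-107, whose seed GCAGCAU is that of miR-15b shifted by a base, was higher by 0.13 (adjusted p = 0.034), and miR-143 and miR-106b by 0.14 and 0.08 (both adjusted p = 0.0371). AA replicate 1 was the highest of the 15 rats for miR-107, while replicates 2 and 3, both at 8.34, lay just below the highest other rat.

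The 4 lower were miR-99a, miR-125b-5p, miR-30a* and miR-30e*. miR-125b-5p was at 8.56 to 8.62 in AA and 8.64 to 9.08 in the 12 others, with no overlap, a difference of -0.23 (SE 0.06, limma adjusted p = 0.0152). miR-99a was lower by -0.26 (adjusted p = 0.015), and its highest AA level of 8.96 met the lowest other level, a Mcarb rat. miR-30a* and miR-30e* lay below all 12 others by small margins and differed by -0.06 and -0.05 (adjusted p = 0.034 and 0.0371). miR-34a did not pass (0.05, adjusted p = 0.877), and ETH rats lay between 9.33 and 10.07. Leaving out AA replicate 1, 2 or 3 in turn left 2, 5 and 5 higher and 0 lower each time. Leaving out Nif gave 5 higher and 0 lower.

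**Figure D5:**
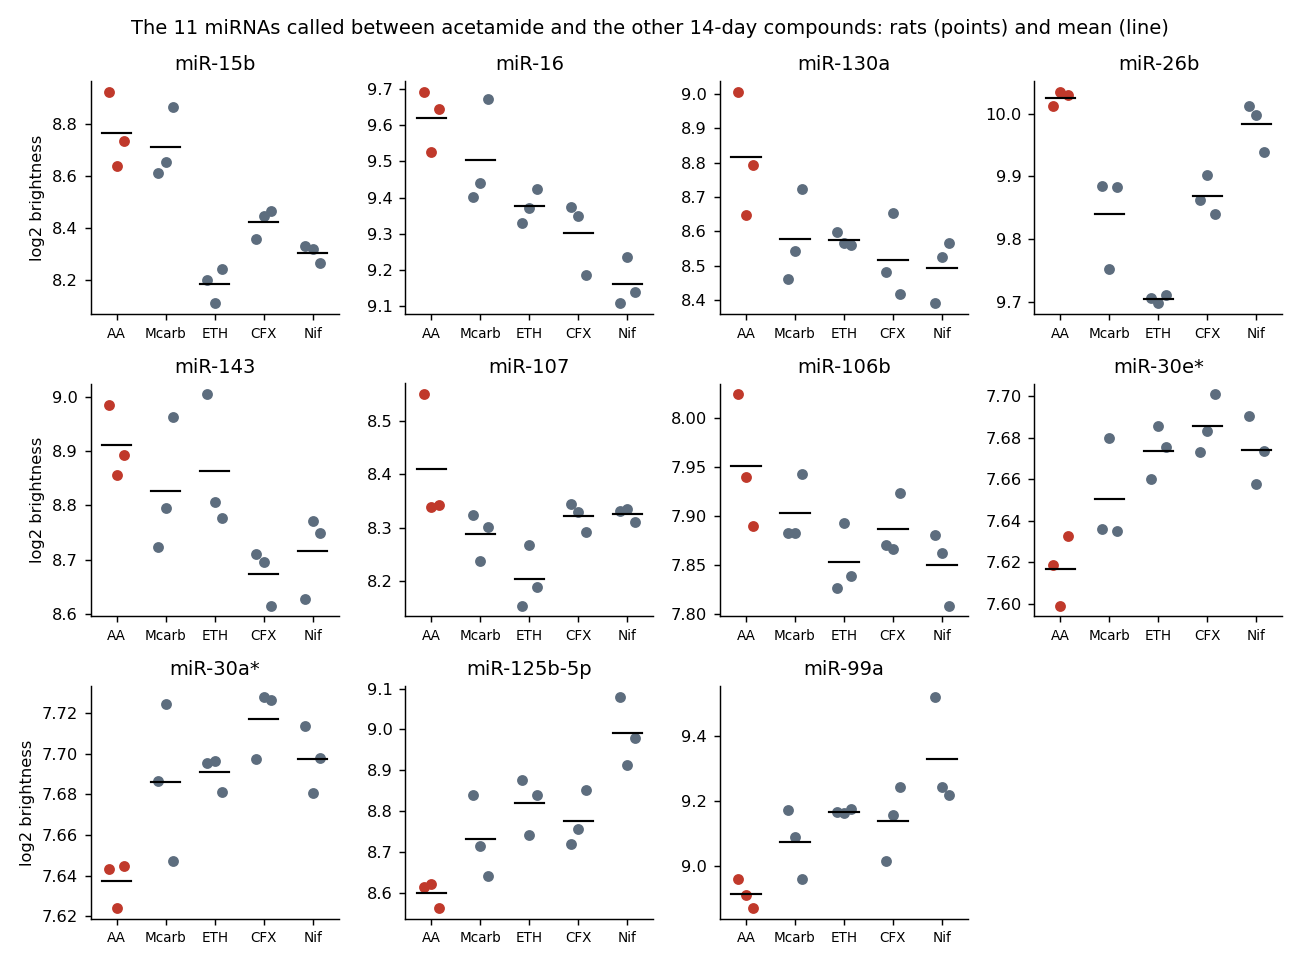
Level of the 11 miRNAs called between AA and the other 14-day compounds (y axis, log2 scale, separate range per panel) for the 3 rats of each compound, with a line at the mean. AA points (red) lie below all others for miR-125b-5p, miR-30a* and miR-30e* and above all others for miR-26b, and Mcarb rats overlap AA for miR-15b.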

How the data were processed

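Liver miRNAs of 63 rats, 1 array per rat, were read from the scanner files deposited by the authors, made with Feature Extraction 10.7.3.1 per the file headers. Their values are spot intensity (linear brightness) and, per probe, flags for well above background and outliers, stored as other values in the deposited files. The authors also deposited a table of log2 values, which the methods describe as a variant of RMA without background correction. Its columns span 2.55 to 14.85 with medians of 4.49 to 5.01, a wider spread than the values computed here (slope 1.58 to 1.63 in AA), and whether background was subtracted was not tested.

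Mean spot brightness was quantile normalized without control and outlier spots, averaged per probe, put on the log2 scale and summarised per miRNA by median polish. Each of 162 miRNAs detected on at least 1 array, of 350, was fitted with limma 3.58.1 in R 4.3.3 over 21 groups. Calls required an adjusted p (Benjamini-Hochberg, over all 162) below 0.05, and intervals are at 95% before adjustment. The bound for miR-139-3p uses the lowest level well above background on each control array, or the array's own reading where that was higher. The script was tested on simulated data. Replicates are separate rats, and the number of arrays limits the precision.

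Named miRNAs are those called with all AA rats beyond all control rats (up to 12 per direction), called list members, cell type markers, 8 fixed miRNAs, and up to 5 called per direction in the other comparisons. The members and lists were chosen with earlier results of these data known. Alternatives changed the values used, scaling, background, filter, slide, scan day, samples and control arrays. Those within a scan day, and those joining a block with the value table's assignment, were chosen after seeing the data. Replicate numbers did not pair the rats: 4 of 12 same-number pairs with the other 14-day compounds had r over 0.1, from -0.58 to 0.39.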

Additional observations from a re-analysis of the deposited data

How the results depend on the processing

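Counts against control set 1 are given as higher and lower, beside 13 and 9. They were 5 and 0 with the value table, 22 and 1 scaled by the 75th percentile of detected miRNAs, 7 and 12 by that of all probes, 8 and 8 without the filter, 5 and 4 with slide as a random block, and 0 and 0 with slide as a fixed block or only the groups compared in the fit. Control arrays as in the value table gave 4 and 0, the mean of MC sets 1, 2 and 5 gave 7 and 8, and that of all 4 MC sets 6 and 5. Added after seeing the data, AA rats of day 1 against MC set 6 gave 3 and 4, AA replicate 3 within day 2 gave 4 and 0 against set 1 and 1 and 0 against sets 1, 2 and 5 (this lone rat is assumed to vary like the other groups), slide as a fixed block with the table's arrays 0 and 0, and scan day with these arrays 3 and 0. Leaving out each rat gave 4 to 14 higher and 2 to 9 lower, lowest without control replicate 5. Calls of miR-34a, miR-15b, miR-130a, miR-99a and miR-125b-5p held without any 1 of the 6 rats.

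Against Mcarb, 4 were higher with the 75th percentile of detected miRNAs, 1 with that of all probes, 1 with scan day as a block, and 0 to 1 without 1 AA rat. Against the other 14-day compounds, beside 7 and 4, counts were 4 and 4 with the value table, 11 and 1 and 4 and 5 with both percentiles, 5 and 2 with normexp, 4 and 2 without the filter, 0 and 0 with slide fixed, 3 and 2 with slide random, 3 and 1 with scan day, 3 and 4 with only the groups compared, 2 to 5 higher and 0 lower without 1 AA rat, 6 and 2 without CFX and 5 and 0 without Nif. With the replicate block, which does not rest on a pairing, they were 2 and 1, and 0 and 0 against Mcarb.

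Signs turned, the cause not tested, for miR-122 (-0.45), miR-141 (0.035) and miR-143 (-0.0053) with the 75th percentile of all probes. With slide fixed they turned for miR-106b (-0.0068), miR-193 (0.057) and miR-93 (-0.030), and with the table's arrays too for miR-93 (-0.015) and miR-18a (-0.00073). In the value table they turned for miR-139-3p (-0.073), miR-320 (-0.038), miR-338 (0.0018), miR-345-3p (-0.094) and miR-743a (-0.13), with the table's arrays for miR-139-3p (-0.018) and miR-320 (-0.0064), and within day 1 for miR-16 (-0.031), miR-30c (0.057), miR-320 (-0.012) and miR-338 (0.0045). Signal near background limits the dim calls.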
